A study of Mus musculus with 8 samples.

Results

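The homeobox, Sox, Pax and T-box genes are transcription factor genes that lay out the embryo's body plan and organs, and they are classic targets of the Polycomb complexes. The set described here holds every gene of the Hoxc, Hoxd, Evx, Pax (without the B cell gene Pax5), Sox, Tbx, Lhx, Dlx, Nkx and Msx families, of the sine oculis homologues (Six2 to Six6), and Gsc, that the array annotation gives as the only symbol of a probe set. That rule used gene names and no measured value, and it found 84 of 12393 genes, reported by 125 of 20380 probe sets. There were 17 Sox, 11 Nkx, 11 Tbx, 9 Hoxd and Evx, 8 Lhx, 7 Pax, 6 Hoxc, 6 Dlx and 3 Msx genes, 5 sine oculis homologues and Gsc. No Emx gene had a probe set of its own. The question was which of them leave background in leukaemia-initiating cells that lack Ezh2.

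Affymetrix 3′ arrays were run on RNA of sorted bone marrow cells from C57/BL6 mice, labelled 12 weeks old. Normal marrow gave LSK cells, which lack lineage markers, carry Sca1 and Kit and hold the marrow's stem and early progenitor cells (labelled WT HSC, 3 arrays). Leukaemia-initiating cells, or LICs, were sorted on that surface phenotype with GFP added, from mice with a retrovirally induced disease that models chronic myeloid leukaemia (CML), 14 days after marrow transplantation. They were wild type for Ezh2 (WT LIC, 3 arrays) or lacked it (Ezh2 KO LIC, 2 arrays). Both LIC groups therefore share the retrovirus, the leukaemia and the transplantation, none of which the labels give for LSK cells. The oncogene, the way Ezh2 was deleted, and any pooling of animals are not given in the labels. The labels call the repeats biological, and p-values measure the spread between these samples only.

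Polycomb repressive complex 2 adds methyl groups to a lysine of histone H3, with Ezh2 or its relative Ezh1 as the enzyme, and Polycomb repressive complex 1 binds that mark. In most adult cells this mark covers the CpG-rich promoters of developmental transcription factor genes, which are silent there. Blood stem and progenitor cells use genes of the Hoxa and Hoxb clusters and a few Sox genes, while genes such as Pax6, Nkx2-1 or Tbx5 are known from eye, lung and heart.

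Values are log2 intensities. The highest mean among 27 control probe sets for bacterial transcripts that are not spiked in at hybridisation was 4.01. Whether these were added at an earlier step is not known. This level of 4.01 was taken as background. Of 72 measured genes of other organs, 52 had a mean at or under it, with a median of 3.33, so it lies above the signal of most genes that these cells should not express. A gene was said to leave background between 2 groups where the mean of the lower group lay at or under that level and every array of the higher group lay above it. Array medians ran from 6.42 to 6.57. Most markers of the LSK phenotype were present: 8 of 9 measured genes were above background on all arrays of each group, and Mecom was at or under it on all 8. Their summed linear intensity was 14174 to 14268 in LSK cells, 7728 to 8970 in WT LICs and 8671 to 10716 in Ezh2 KO LICs. Kit, a gene of the sort itself, was called lower in both LIC groups than in LSK cells, and Hlf, a stem cell factor, in WT LICs. WT LIC replicate 3 stood apart in red cell genes, where Car1 was at 2.70, against 11.71 and 10.48 in its 2 companions, so the members called against WT LICs and the calls over all genes that involve it are also given without it. The 3 comparisons share arrays, so their results are not independent of each other.

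Ezh2 itself was at 10.77, 10.95 and 11.07 on the 3 LSK arrays, at 11.33, 11.44 and 11.26 in WT LICs, and at 8.94 and 9.55 in Ezh2 KO LICs. It fell by 2.10 on the log2 scale between WT and Ezh2 KO LICs (SE 0.21, limma adjusted p = 0.00985). The groups did not overlap, and signal well above background remained in the knockout group. In a fit of the LIC arrays alone the adjusted p was 0.055. Whether its 1 probe set reads the deleted exons is unknown, so this level is no check of the deletion itself. Ezh1, which can take its place as the enzyme, was at 7.91, 9.05 and 8.35 in LSK cells, at 7.81, 7.79 and 7.87 in WT LICs and at 6.83 and 6.41 in Ezh2 KO LICs. It fell by 1.82 between LSK cells and Ezh2 KO LICs (SE 0.32, adjusted p = 0.0292). This call was lost in 8 of 20 alternatives (adjusted p up to 0.151), among them a fit of the 2 groups alone and each of 5 fits that left out 1 array. Its difference between the LIC groups, -1.20, did not pass (SE 0.32, adjusted p = 0.212).

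Promoters of 61 of the 84 genes are in the RefSeq table of assembly GRCm38.p6, which gives 250 bases before and 50 bases after each start site. Where a gene has several starts, the window with the most CpG was used. The windows of these 61 genes held a median of 20 CpG (quartiles 13 and 27), against a median of 19 (quartiles 9 and 28) over 9882 genes on the array. At least 10 CpG were found in 82.0% of them, against 74.2% of all. The contrast lay among silent genes. The 36 members at or under background on all 8 arrays had a median of 22 CpG, whereas all 2095 such genes had a median of 6, and 10 or more CpG were found in 83.3% of the former and 39.4% of the latter. The motif TATAAA, on either strand, was in 9.84% of the members' windows and in 9.67% of all. Of the windows on which the results turn, Hoxc4 belongs to the gene that rose in Ezh2 KO LICs and Sox6 to the gene that was lower in both LIC groups. Sox12 belongs to a gene well above background on every array, and Sox2 to one at or under background on every array. They are printed 5′ to 3′ on the gene's strand, with each CpG in capitals.
Hoxc4, chr15:103034145-103034444, plus strand: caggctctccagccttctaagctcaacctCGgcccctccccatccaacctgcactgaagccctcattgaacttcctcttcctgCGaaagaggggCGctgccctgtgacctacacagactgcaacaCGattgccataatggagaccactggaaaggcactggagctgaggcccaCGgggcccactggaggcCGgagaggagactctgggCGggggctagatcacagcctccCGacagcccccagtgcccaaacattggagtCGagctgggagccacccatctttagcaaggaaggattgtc
Sox6, chr7:116030998-116031297, minus strand: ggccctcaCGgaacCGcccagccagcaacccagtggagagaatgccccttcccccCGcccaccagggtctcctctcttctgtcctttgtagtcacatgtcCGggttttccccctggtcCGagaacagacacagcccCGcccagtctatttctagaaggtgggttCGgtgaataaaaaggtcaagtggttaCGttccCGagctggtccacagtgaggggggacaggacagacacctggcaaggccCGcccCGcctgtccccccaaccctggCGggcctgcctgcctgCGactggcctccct
Sox12, chr2:152397997-152398296, minus strand: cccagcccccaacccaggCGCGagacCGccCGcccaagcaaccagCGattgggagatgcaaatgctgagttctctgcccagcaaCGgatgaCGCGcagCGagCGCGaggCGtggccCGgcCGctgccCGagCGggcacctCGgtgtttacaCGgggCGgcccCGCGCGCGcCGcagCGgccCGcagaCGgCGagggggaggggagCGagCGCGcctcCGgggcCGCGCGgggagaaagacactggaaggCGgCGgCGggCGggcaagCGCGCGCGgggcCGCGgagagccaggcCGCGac
Sox2, chr3:34649745-34650044, plus strand: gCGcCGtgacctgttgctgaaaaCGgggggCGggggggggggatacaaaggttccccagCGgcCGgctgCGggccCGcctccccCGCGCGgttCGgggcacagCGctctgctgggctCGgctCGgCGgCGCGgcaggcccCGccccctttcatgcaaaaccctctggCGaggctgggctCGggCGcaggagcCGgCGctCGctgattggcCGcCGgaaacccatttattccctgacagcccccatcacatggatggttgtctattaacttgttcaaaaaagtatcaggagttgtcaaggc
The Hoxc4 window held 9 CpG, and 76.2% of all genes had as many or more. The Sox6 window, 1 of 6 starts in the table, held 13, a number that 68.1% of genes reached. Sox12 had 47 (2.67% of genes) and the silent Sox2 had 27 (29.2% of genes). The Hoxc4 window thus had fewer CpG than the other windows printed. The other Sox6 starts held 2 to 11, so another start or other members would give another order. Sox4, the brightest member, held 12 (70.2% of genes had as many or more). Lhx8 and Pax8, at or under background on every array, held 4 and 7. The counts describe the windows chosen and say nothing of how they are marked.

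Most of the 84 genes were at or near background in all 3 groups. On every array of a group, 14 lay above background in LSK cells, 18 in WT LICs and 16 in Ezh2 KO LICs. Of all 12393 genes, 66.7%, 66.1% and 68.5% did. Of the 72 measured genes of other organs, 12, 14 and 15 did. A place above this level therefore does not by itself mean that a member is expressed. The group mean was at or under background for 66, 60 and 64 of them. There were 11 above it on all 8 arrays, 50 at or under it on all 8 and 23 in between. No Tbx or Pax gene was above background on every array of any group, and in the probe sets that stand for each gene (the brightest on average) the highest Pax value was 4.18 (Pax9). Sox2, which with other factors keeps embryonic stem cells pluripotent, was at 1.92 to 2.25. Pax6, the eye and forebrain regulator, was at 3.11 to 3.82 in the brightest of its 5 probe sets, but another of them was at 4.98 on Ezh2 KO LIC replicate 2, at 4.01 on WT LIC replicate 2 and at 2.67 to 3.15 on the other 6 arrays. Nkx2-5, a heart regulator, was at 3.14 to 4.15 and Dlx5, a bone and jaw factor, at 2.51 to 2.96. Less RNA per cell and fewer cells with the RNA cannot be told apart in such bulk samples.

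**Figure D1:**
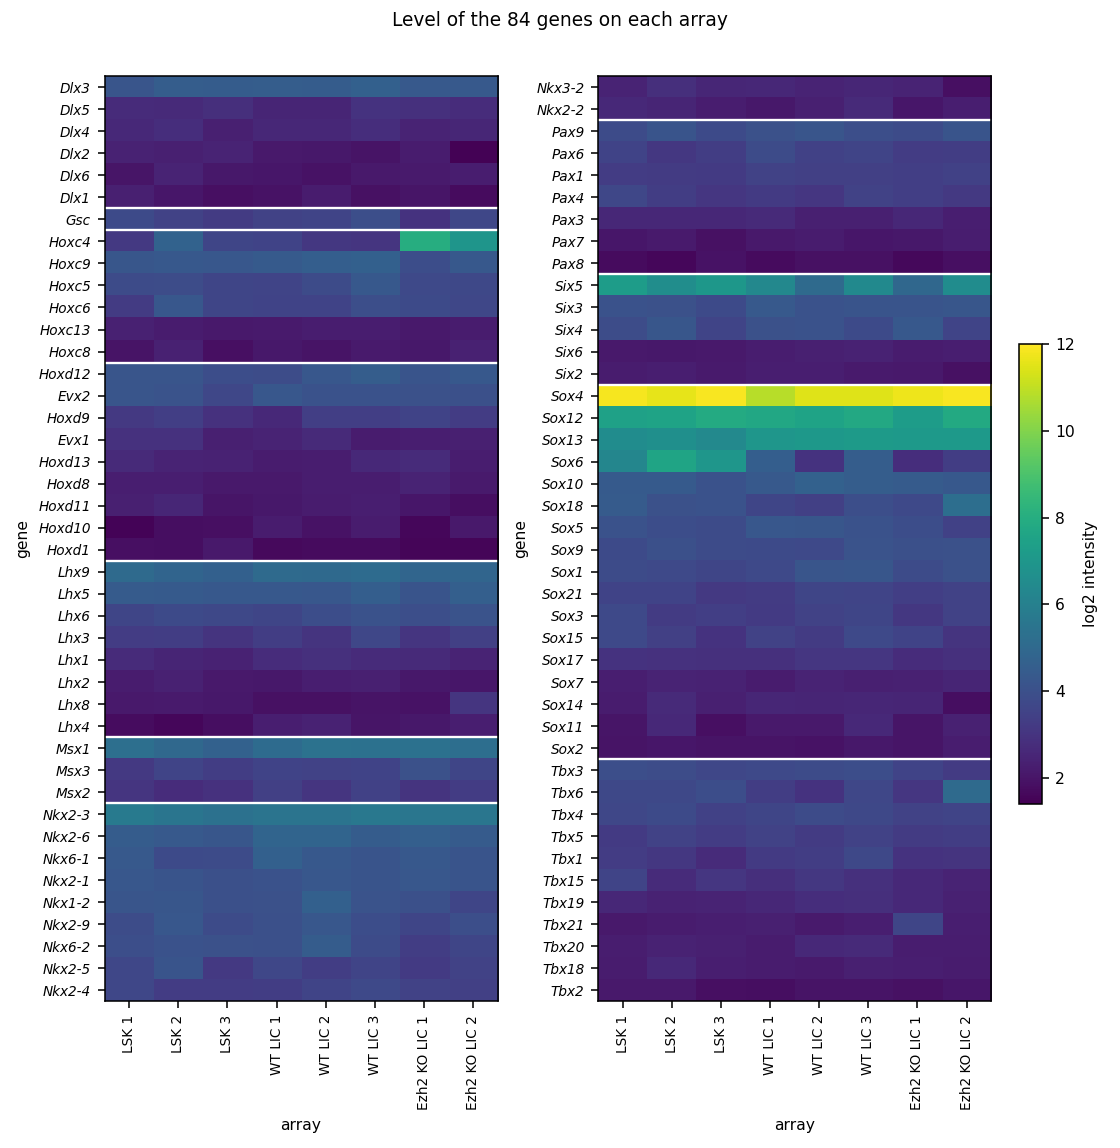
Log2 intensity of the 84 genes (rows, grouped by family and set apart by white lines) on each of the 8 arrays (columns), with the colour scale in log2 units. Most rows are dark on every array, Sox4 is bright throughout, Hoxc4 is bright on the Ezh2 KO LIC arrays alone, and Sox6 is brightest on the LSK arrays.

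The first comparison asked which genes changed between WT and Ezh2 KO LICs. Only Hoxc4 was called (1 of 84, at an adjusted p under 0.05), and it was higher in Ezh2 KO LICs. Of all genes 0.637% were called, 0.589% higher and 0.0484% lower. Those calls over all genes numbered 79, and 146 without WT LIC replicate 3 (1.18%). Hoxc4, the 3′-most gene of the HoxC cluster, is known from lymphoid cells and from the expansion of early blood progenitors. It was at 3.16, 4.73 and 3.63 in LSK cells, at 3.52, 3.12 and 3.02 in WT LICs, and at 8.01 and 6.93 in Ezh2 KO LICs. Both Ezh2 KO arrays were above every other array, WT LICs lay under background on all 3, and 1 of 3 LSK arrays lay above it.

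The Hoxc4 level in Ezh2 KO LICs, 7.47 ± 0.76 (SD, n = 2), was at least 11.0-fold higher than in WT LICs (3.22 ± 0.26, SD, n = 3), taken against the background level. The measured difference was 4.25 on the log2 scale (SE 0.49, limma adjusted p = 0.0162), and 4.15 without WT LIC replicate 3 (adjusted p = 0.0265). Against LSK cells (3.84 ± 0.80, SD, n = 3) the measured difference was 3.63 (SE 0.49, adjusted p = 0.0142). Taken against the background level it was again 11.0-fold, which is no lower bound here, since LSK replicate 2 (4.73) lay above that level. The 2 Ezh2 KO arrays carry this result. Without Ezh2 KO LIC replicate 1 the difference was 3.71 against WT LICs and 3.09 against LSK cells, and the call was lost (adjusted p = 0.0697 and 0.0759); the remaining array is then assumed to vary like the other groups. Against WT LICs the call was also lost without WT LIC replicate 1 (difference 4.40, adjusted p = 0.0524) or replicate 2 (adjusted p = 0.0633). Hoxc4 has 1 probe set, so no second probe set checks it.

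Its neighbours in the cluster did not rise with it. Hoxc5, next to Hoxc4, was at 3.58 to 4.31 over the 8 arrays, with 3.75 and 3.69 in Ezh2 KO LICs. Hoxc6, the next gene, was at 3.25 to 4.27, with 3.79 and 3.64 in Ezh2 KO LICs. Neither passed in any comparison, and the highest value of each was on a WT LIC or LSK array. Further along, Hoxc8 was at 1.85 to 2.38 and Hoxc13, at the far end, at 2.11 to 2.37. Hoxc9 was at 4.41, 4.55 and 4.64 in WT LICs and at 3.92 and 4.33 in Ezh2 KO LICs, a difference of -0.41 that did not pass (SE 0.17, adjusted p = 0.43). Hoxc10, Hoxc11 and Hoxc12 were not measured. The HoxD cluster with Evx2 was flat: its 8 measured genes reached at most 4.52 on any array, and none was called in any comparison. Hoxd3 and Hoxd4 share 2 probe sets, which are outside the rule and were at 1.95 to 3.01.

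**Figure D2:**
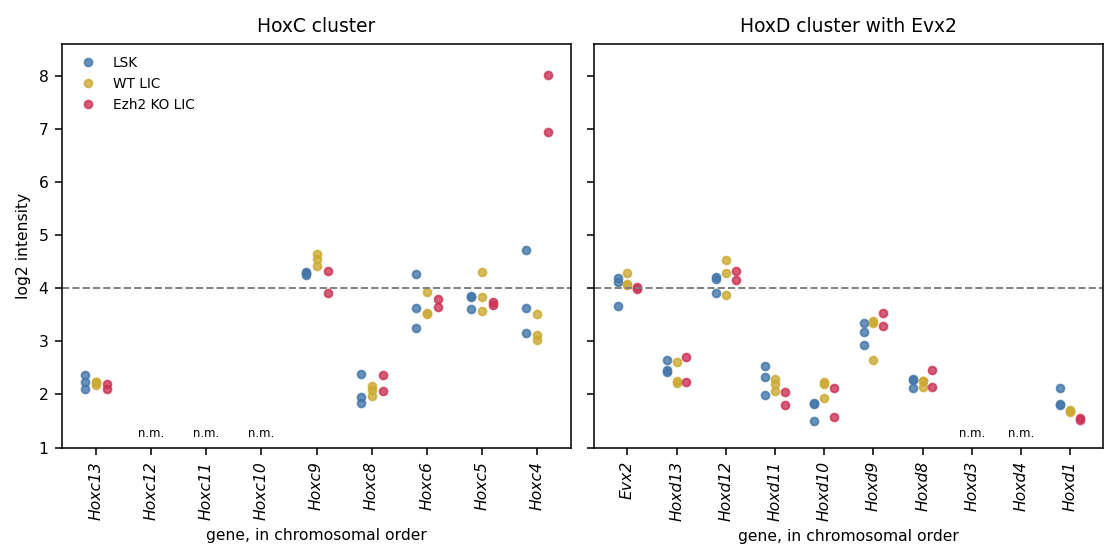
Log2 intensity of each gene of the HoxC cluster (left) and of the HoxD cluster with Evx2 (right), in chromosomal order. Points are arrays coloured by group, the dashed line is the background level of 4.01, and n.m. marks genes not measured; Hoxc4 in Ezh2 KO LICs (8.01 and 6.93) is the only set of points far above the line.

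Read against background, Hoxc4 was 1 of 60 members at background in WT LICs that were above it on both Ezh2 KO LIC arrays, while 4.76% of all genes at background in WT LICs were. In the other direction, Nkx1-2, Evx2 and Sox5 were above background on all WT LIC arrays. Their means were at or under it in Ezh2 KO LICs. They were 3 of the 18 members above background on all WT LIC arrays, against 0.769% of all genes above it there. Their WT LIC means, 4.14 to 4.25, lay just over the line, while the median level of all genes was 7.16. The shifts across the line were small. Sox5 was at 4.30, 4.22 and 4.08 in WT LICs and at 3.91 and 3.43 in Ezh2 KO LICs, a difference of -0.53 (SE 0.19, adjusted p = 0.366). Evx2 moved by -0.14 (SE 0.19) and Nkx1-2 by -0.45 (SE 0.23), and neither passed (adjusted p = 0.827 and 0.525).

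The other 83 genes differed by -0.97 (Sox6) to 0.83 (Sox18) between WT and Ezh2 KO LICs, and none passed. A difference of over 1 was found for 1 of 84 members and for 6.4% of all genes. The members' median difference was -0.12, beside -0.05 over all genes. Arrays of the LIC groups did not overlap for 4 members higher in Ezh2 KO LICs (Sox4, Hoxc4, Msx3 and Dlx6), against 13.2% of all genes, and for 18 lower ones, against 16.6%. At an unadjusted p under 0.05 there were 5 members (Hoxc4, Hoxc9, Sox5, Nkx6-2 and Tbx3), while 11.1% of all genes lay there. Of these, Nkx6-2, an islet and neural factor, was at 3.99, 4.49 and 3.83 in WT LICs and at 3.34 and 3.60 in Ezh2 KO LICs (difference -0.64, SE 0.22, adjusted p = 0.346). Tbx3, a limb and embryonic stem cell regulator, was at 3.75, 3.81 and 3.93 against 3.52 and 3.22 (difference -0.46, SE 0.17, adjusted p = 0.373). Both lay at or under background in Ezh2 KO LICs.

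**Figure D3:**
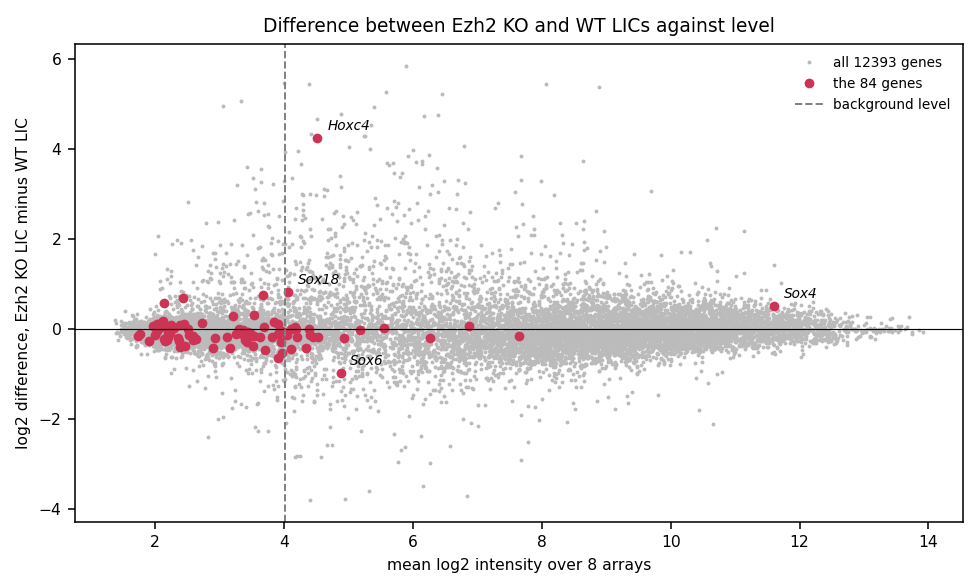
Difference between Ezh2 KO and WT LICs (log2, vertical axis) against the mean log2 intensity over the 8 arrays (horizontal axis) for all 12393 genes (grey) and the 84 genes (red), with background as a dashed line. Hoxc4 at 4.25 is far from the rest of the red points, which lie between -0.97 and 0.83.

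Of the 84 genes, 3 met a rule chosen after their values were seen: 1 array at least 1 above all 7 others. These were Hoxc4 and Tbx21 on Ezh2 KO LIC replicate 1, where 0.516% of all genes met it, and Tbx6 on replicate 2, where 0.831% did. Hoxc4 was far above the LSK and WT LIC arrays on replicate 2 as well (6.93). No member met the rule on an LSK or WT LIC array. Tbx21, the T-bet gene of T helper and NK cells, was at 3.63 on Ezh2 KO LIC replicate 1 and at 2.14 to 2.34 on the other 7 arrays, under background on all 8. Tbx6, a regulator of paraxial mesoderm, was at 5.08 on replicate 2, at 3.07 on replicate 1 and at 2.95 to 3.90 elsewhere. Sox18, an endothelial factor, was at 4.44, 4.03 and 4.07 in LSK cells, at 3.60, 3.42 and 3.96 in WT LICs, and at 3.74 and 5.23 in Ezh2 KO LICs. The 2 Ezh2 KO arrays thus disagreed for Tbx21, Tbx6 and Sox18, and none of the 3 passed against WT LICs (adjusted p = 0.498, 0.619 and 0.5).

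The second comparison set Ezh2 KO LICs against normal LSK cells. Of 84 genes 2 were called, Hoxc4 higher and Sox6 lower, while 3.47% of all genes were called, 1.61% higher and 1.86% lower. Hoxc4, Nkx6-1 and Six3 left background in Ezh2 KO LICs, 3 of 66 members at background in LSK cells, against 5.11% of all such genes. Nkx6-1, an islet and motor neuron factor, was at 4.35, 3.79 and 3.81 in LSK cells and at 4.31 and 4.13 in Ezh2 KO LICs (difference 0.24, SE 0.23, adjusted p = 0.644). Six3, a forebrain and eye factor, moved by 0.23 (SE 0.16, adjusted p = 0.51). Neither of the latter pair passed, and the arrays of Nkx6-1 overlapped.

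Sox6, an SoxD factor known for silencing embryonic globin genes and for red cell maturation, was well above background only in LSK cells. It was at 6.28, 7.59 and 6.96 in LSK cells, at 4.58, 2.97 and 4.52 in WT LICs, and at 2.80 and 3.31 in Ezh2 KO LICs. All LSK arrays were above all LIC arrays, and both Ezh2 KO arrays were under background. The difference from LSK cells (6.94 ± 0.66, SD, n = 3) was -3.89 for Ezh2 KO LICs (SE 0.56, adjusted p = 0.0179), which against background is at least 7.63-fold lower. For WT LICs (4.02 ± 0.91, SD, n = 3) it was -2.92 (SE 0.50, adjusted p = 0.028), and -3.17 without WT LIC replicate 3 (adjusted p = 0.028). Between the LIC groups the difference of -0.97 did not pass (SE 0.56, adjusted p = 0.562), and its arrays did not separate the groups.

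The Sox6 calls were lost without single arrays, while the differences stayed large. Against LSK cells the call for Ezh2 KO LICs was lost without LSK replicate 3 (difference -3.88, adjusted p = 0.0508), Ezh2 KO LIC replicate 1 (-3.63, 0.0947) or Ezh2 KO LIC replicate 2 (-4.14, 0.0719), where the lone Ezh2 KO array takes its spread from the other groups. For WT LICs it was lost without LSK replicate 2 (difference -2.59, adjusted p = 0.0775), LSK replicate 3 (-2.91, 0.0859) or WT LIC replicate 1 (-3.20, 0.0576). A second, dimmer probe set of Sox6 was at 4.06, 4.97 and 4.36 in LSK cells, at 3.89, 3.56 and 2.66 in WT LICs and at 2.96 and 3.05 in Ezh2 KO LICs. It lay in the same order, with all LSK arrays above all LIC arrays, and did not pass (difference -1.46 for Ezh2 KO and -1.10 for WT LICs against LSK cells, adjusted p = 0.104 and 0.152). Markers of other cells stood beside Sox6 on these arrays. The summed intensity of 10 erythroid markers was 10494 to 11002 in LSK cells, 5882 to 20993 in WT LICs and 7406 to 7663 in Ezh2 KO LICs. None of the 10 was called by limma in any comparison, and Hba-a1 was at or under background on all 8 arrays. Without WT LIC replicate 3, Tfrc, Gata1, Ermap, Klf1 and Epor passed against LSK cells and were higher in WT LICs. Ermap, Klf1 and Epor were then lower in Ezh2 KO than in WT LICs, and Car1 was lower in Ezh2 KO LICs than in LSK cells. Genes of antibody-secreting cells were high in LSK cells like Sox6, with sums over 8 genes of 12371 to 17641, against 1363 to 1742 in WT LICs and 1636 to 2342 in Ezh2 KO LICs. Of these, Jchain, Igk and Ighm were called lower in both LIC groups, and Tnfrsf17 in Ezh2 KO LICs. The part of these cells in the Sox6 result was not tested.

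**Figure D4:**
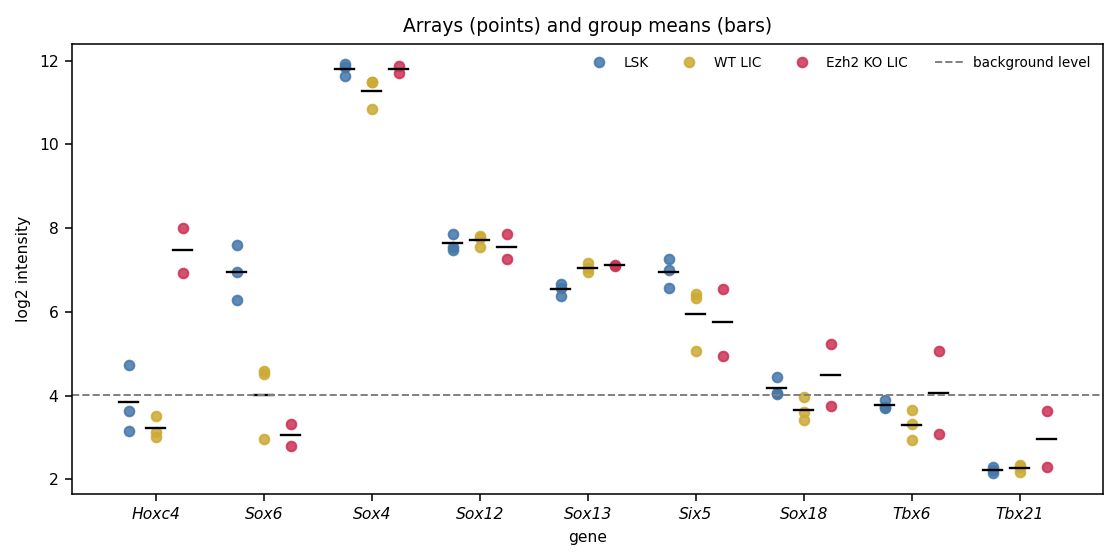
Log2 intensity of 9 of the 84 genes on each array (points) with group means (bars), for LSK cells, WT LICs and Ezh2 KO LICs, and background as a dashed line. Hoxc4 is high in Ezh2 KO LICs, Sox6 is high in LSK cells, Sox13 is lowest in LSK cells, and the Ezh2 KO points of Six5, Sox18, Tbx6 and Tbx21 are far apart.

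The remaining genes differed by -1.20 (Six5) to 0.75 (Tbx21) between Ezh2 KO LICs and LSK cells, with a median of 0.00 for the 84 genes beside -0.02 for all. A difference of over 1 was found for 3 members and 10.5% of all genes. Arrays did not overlap for 10 members higher in Ezh2 KO LICs (18.2% of all genes) and 11 lower (20.5%). Of the 14 members above background on all LSK arrays, Sox6 alone had a mean at background in Ezh2 KO LICs. Of all genes above it on those arrays, 1.11% did. Lhx4, a pituitary factor, was at 1.74, 1.59 and 1.79 in LSK cells and at 2.08 and 2.30 in Ezh2 KO LICs (difference 0.48, SE 0.18, adjusted p = 0.193), under background throughout.

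The third comparison set WT LICs against LSK cells, with Ezh2 present in both. The retrovirus, the leukaemia, the transplantation, the GFP sort and any batch cannot be told apart in it. Of 84 genes 1 was called, Sox6, which was lower, while 3.42% of all genes were called, 1.27% higher and 2.15% lower. Those calls over all genes numbered 424, and 643 without WT LIC replicate 3 (5.19%). Nkx6-1, Six3, Evx2 and Sox5 left background in WT LICs, 4 of 66 members against 2.84% of all such genes, by 0.15 (Evx2) to 0.41 (Nkx6-1). Of the 14 members above background on all LSK arrays, Sox18 alone was at background in WT LICs. Of all genes above it on those arrays, 1.4% were. None of these 5 passed. The uncalled genes differed by -1.005 (Six5) to 0.52 (Lhx4), with a median of 0.07 for the 84 genes beside 0.02 for all, and 2 members against 8.9% of all genes differed by over 1. Arrays did not overlap for 9 members higher in WT LICs (13.5% of all genes) and 8 lower (13.2%).

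Sox4, a SoxC factor of B and T cell progenitors and of leukaemias, was far above background on every array. Its brightest probe set was at 11.85, 11.63 and 11.91 in LSK cells, at 10.84, 11.50 and 11.48 in WT LICs, and at 11.71 and 11.88 in Ezh2 KO LICs. Both Ezh2 KO arrays were above all WT LIC arrays and within the range of LSK cells. The difference between the LIC groups, 0.52 (SE 0.23), did not pass (adjusted p = 0.463), nor did that between WT LICs and LSK cells, -0.52 (SE 0.21, adjusted p = 0.217). Its 6 probe sets disagreed. In a fit of all probe sets, 3 dimmer ones were lower in both LIC groups than in LSK cells, with differences of -1.64 to -1.22 for WT LICs (adjusted p = 0.0242 to 0.0327) and of -2.12 to -1.49 for Ezh2 KO LICs (adjusted p = 0.0148 to 0.0275). The brightest of these 3 was at 8.41, 8.92 and 8.15 in LSK cells, at 7.32, 6.59 and 6.66 in WT LICs and at 6.76 and 6.31 in Ezh2 KO LICs. A further probe set differed by -0.68 and -0.28 without passing, and 1 lay under background on all 8 arrays. Sox4 was thus high in all groups, and whether it fell in LICs depends on the probe set read.

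**Figure D5:**
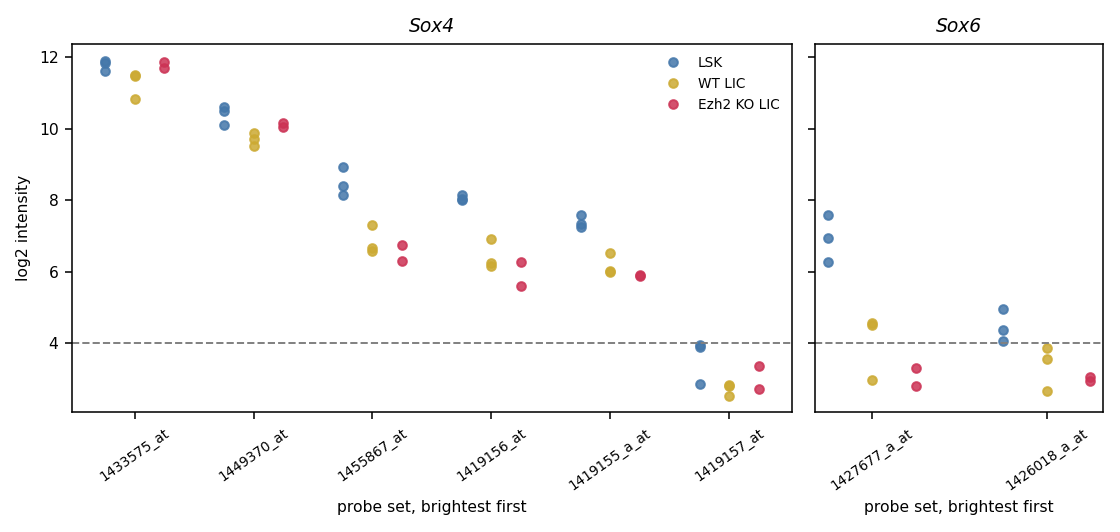
Log2 intensity of the 6 probe sets of Sox4 (left) and the 2 of Sox6 (right), brightest first, with arrays as points coloured by group and background as a dashed line. In 3 dimmer Sox4 probe sets all LIC arrays lie under all LSK arrays, whereas in the brightest one the Ezh2 KO arrays lie within the LSK range.

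Of the other members well above background, Sox12, Sox13 and Six5 did not pass in any comparison. Sox12, the SoxC relative of Sox4, was at 7.48, 7.56 and 7.87 in LSK cells, at 7.76, 7.55 and 7.80 in WT LICs and at 7.26 and 7.85 in Ezh2 KO LICs, with overlapping groups. Sox13, a SoxD factor of γδ T cells, was at 6.57, 6.67 and 6.39 in LSK cells, at 6.95, 7.04 and 7.16 in WT LICs and at 7.10 and 7.12 in Ezh2 KO LICs. Every LIC array was above every LSK array. The differences of 0.51 (SE 0.14) for WT and 0.57 (SE 0.15) for Ezh2 KO LICs did not pass (adjusted p = 0.0898 for each). In the alternative limma fit with array weights, Sox13 passed for WT LICs (adjusted p = 0.0474). Six5, a sine oculis homologue of muscle and lens, was at 7.26, 6.58 and 7.01 in LSK cells, at 6.34, 5.07 and 6.42 in WT LICs and at 4.95 and 6.55 in Ezh2 KO LICs. All LIC arrays were under all LSK arrays, with a wide spread within each LIC group, and the differences of -1.005 (SE 0.50) and -1.20 (SE 0.56) did not pass (adjusted p = 0.313 and 0.304). Nkx2-3, a factor of spleen and gut vessels, stayed within 5.37 to 5.74, Msx1 within 4.68 to 5.41, Lhx9 within 4.64 to 5.10 and Nkx2-6 within 4.23 to 4.83. All of these values lay under 5.80, the 95th percentile of the genes of other organs. A dimmer probe set of Msx1 was at 1.93 to 2.73 and that of Lhx9 at 2.24 to 2.68, under background on all 8 arrays. The other Nkx2-3 probe sets were at 4.78 to 5.35 and at 3.37 to 4.11.

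Of 21 family members known from blood, immune or endothelial cells, 18 were measured, and 8 of them were at or under background on all 8 arrays. Among these 8 were Sox17, a factor of fetal stem cells and endothelium (2.75 to 3.09), its relative Sox7 (2.20 to 2.49), Lhx2, which can expand blood progenitors when overexpressed (2.05 to 2.35), Tbx1 (2.70 to 3.72) and Dlx1 (1.70 to 2.33). In this list Hoxc4 was called higher in Ezh2 KO LICs, Sox6 was called lower in both LIC groups, and the other 16 did not pass in any comparison.

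Markers of other cell types moved over the same arrays. Of 13 measured B cell genes 6 were higher in Ezh2 KO than in WT LICs (Vpreb3, Igll1, Cd79a, Pou2af1, Rag1 and Blnk), and their summed intensity was 976 to 1472 in LSK cells, 495 to 994 in WT LICs and 5762 to 9049 in Ezh2 KO LICs. Pax5, Cd22 and Ms4a1 of that list were at or under background on all arrays. Without WT LIC replicate 3, 7 of the 13 were called between the LIC groups, Rag2 being the addition. Against LSK cells, 6 of the 13 were called higher in Ezh2 KO LICs (Igll1, Vpreb3, Cd79a, Rag1, Pou2af1 and Vpreb1), but not Blnk or Rag2. Rag2, Blnk and Pou2af1 were above background on all LSK arrays and at background in WT LICs. Without WT LIC replicate 3, Blnk and Rag2 were called lower in WT LICs than in LSK cells. Hoxc4 and the sum of the B cell genes were thus high on the same 2 arrays. The part of B-lineage cells in the Hoxc4 result was not tested. Of 16 T and NK cell genes none was called between the LIC groups, Gzma was higher in Ezh2 KO LICs and Klrd1 lower in WT LICs than in LSK cells. The sums ran from 2434 to 3751, 4705 to 5498 and 3899 to 4342 in LSK cells, WT LICs and Ezh2 KO LICs. Cd3g, Cd8b1, Ncr1 and Il2rb were at or under background on all arrays. Of 15 endothelial genes none was called between the LIC groups, Emcn, Robo4 and Tie1 were lower in WT LICs than in LSK cells, and Tie1 was also lower in Ezh2 KO LICs. Their sums were 2621 to 3466, 984 to 1221 and 1093 to 1536, and Kdr, Stab2, Cldn5 and Ptprb were at or under background on all arrays. Of 15 stroma and bone genes, Alpl alone was called, higher in Ezh2 KO LICs than in either other group.

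Other developmental regulators known as Polycomb targets, such as Gata, Fox, Irx and Zic genes, were mostly at background too. Of 133 listed, 105 were measured (Nkx1-2 is in both sets), and 77 of these were at or under background on all 8 arrays. None was called by limma in any comparison. Of all genes 0.637% were called between the LIC groups, 3.47% between Ezh2 KO LICs and LSK cells and 3.42% between WT LICs and LSK cells. The median differences of the list were -0.07, 0.04 and 0.10 in that order. At background in LSK cells were 89. Of these, Isl1 and Pou3f3 left it in Ezh2 KO LICs and Pou3f3 in WT LICs, against 5.11% and 2.84% of all such genes. Pdx1 and Nkx1-2 were above background on all WT LIC arrays and at background in Ezh2 KO LICs. Of all genes at background in WT LICs, 4.76% were above it on both Ezh2 KO arrays. Of the 87 in this list, 1 was. This was Isl1, a factor of heart progenitors, motor neurons and islets, at 1.97, 3.48 and 4.07 in LSK cells, at 3.43, 2.14 and 2.28 in WT LICs and at 5.57 and 6.22 in Ezh2 KO LICs. Both Ezh2 KO arrays were above all others, at least 3.69-fold higher than WT LICs when set against background. The measured difference of 3.28 (SE 0.65) did not pass (adjusted p = 0.112, 0.0357 to 0.439 over the alternatives).

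The Hoxa and Hoxb clusters hold the Hox genes best known from blood progenitors. Of 21 genes 18 were measured, of which 8 were above background on all LSK arrays, 6 on all WT LIC arrays and 6 on all Ezh2 KO LIC arrays, and 5 were at or under it on all 8. None was called between the LIC groups (median difference 0.20, from -0.17 to 2.23). Hoxa3, Hoxb4 and Hoxa10 were called lower in WT LICs than in LSK cells, 3 of 18 against 2.15% of all genes. The number called there ran from 0 (without WT LIC replicate 1) to 6 (with array weights), and was 1 without LSK replicate 2, LSK replicate 3 or WT LIC replicate 2. The Hoxa10 call was lost in 7 of 20 alternatives (difference -2.48 to -1.79, adjusted p up to 0.115). Hoxa10, a factor of myeloid progenitors, was at 9.65, 9.28 and 9.34 in LSK cells, at 6.56, 7.33 and 7.94 in WT LICs and at 10.15 and 8.87 in Ezh2 KO LICs. The arrays of the LIC groups did not overlap, but the difference of 2.23 (SE 0.47) did not pass (adjusted p = 0.134).

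Among the Polycomb genes themselves, 1 of 13 measured PRC2 subunits was called between the LIC groups (Ezh2, lower) and 2 against LSK cells (Ezh2 and Ezh1, lower in Ezh2 KO LICs). Of 20 PRC1 subunits and readers 14 were measured, and Bmi1 alone was called. Bmi1, a core PRC1 subunit needed for stem cell self-renewal, was at 10.59, 10.51 and 10.54 in LSK cells, at 10.31, 10.49 and 10.14 in WT LICs, and at 11.52 and 11.70 in Ezh2 KO LICs. Both Ezh2 KO arrays were above all others. It rose by 1.30 against WT LICs (SE 0.16, adjusted p = 0.0193) and by 1.06 against LSK cells (SE 0.16, adjusted p = 0.0198). The call against WT LICs was lost in 5 of 20 alternatives (without either Ezh2 KO array or WT LIC replicate 1, with the replicate block and in the 2 groups alone; adjusted p up to 0.118). That against LSK cells was lost in 6 of 20 (without any 1 LSK or Ezh2 KO array and with the block; adjusted p up to 0.111). The difference stayed at 1.21 to 1.39 and at 0.97 to 1.15.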

How the data were processed

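The values are those of the authors' deposited table: linear intensity values, 1.94 to 19343.1, for 22690 probe sets on 8 arrays. The submitters' processing notes name RMA, without a version, and no other step. The design had assumed log2 values, so log2 was taken with no pseudocount and the test kept. Of the probe sets 64 were controls, 691 had several gene symbols and 1555 had no entry in the annotation. The other 20380 had 1 symbol, brought up to date by gene number through the RefSeq table of GRCm38.p6 (20351 matched). The probe set brightest on average stood for its gene, leaving 12393 genes, dim ones included. Most members had 1 probe set (57), and 27 had up to 6.

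A single limma fit held all 3 groups (limma 3.58.1, R 4.3.3; lmFit and eBayes, 5 residual degrees of freedom). Tests were 2-sided, with Benjamini-Hochberg adjustment over the 12393 genes and calls at an adjusted p under 0.05. Exact permutation of 2 arrays against 3 cannot go below 0.1 and was not used. The script was tested on simulated data. Sums of marker lists are of linear intensity over their measured genes.

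The members and all lists were chosen with earlier results of these data known. Named genes were those called, those leaving background, those with the smallest p or highest mean, and members known from blood; others, where named, were chosen after their values were seen. Alternatives were other normalizations, filters, background levels, probe set rules, fits and left-out arrays. The labels number the repeats alike in each group; deviations of same-numbered arrays correlated at -0.05 to 0.14, so the numbers were not taken as pairs. No scan date and no sex is given in the labels, so batch and group cannot be told apart. Plots used matplotlib 3.10.9.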

Additional observations from a re-analysis of the deposited data

How the results depend on the processing

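Over 75 results and 1410 alternative values, 1217 kept their direction and side of the threshold (or, for counts, stayed within 1.5 times), and 15 changed sign; the cause was not tested. With the replicate block, 0 members were called in each comparison: Hoxc4 had an adjusted p of 0.0861 against WT LICs and 0.0621 against LSK cells, and Sox6 of 0.0701 (Ezh2 KO LICs) and 0.0693 (WT LICs) against LSK cells. Calls among all genes fell from 79 to 36, from 430 to 147 and from 424 to 252 (Ezh2 KO against WT LICs, Ezh2 KO LICs against LSK cells, WT LICs against LSK cells). With genes above the 40th percentile only, 0 members were called in each comparison, since Hoxc4 and Sox6 are too dim to be tested there. WT LICs against LSK cells gave 3 calls with array weights (Sox6, Sox13 and Lhx4) and 2 with the mean of all probe sets. They also gave 2 with all probe sets fitted, where the probe set with the smallest p stood for its gene. Leaving out 1 array gave 0 to 1 calls against WT LICs, 0 to 2 for Ezh2 KO LICs and 0 to 1 for WT LICs against LSK cells. Ezh2 had an adjusted p of 0.055 (difference -2.10) in a fit of the 2 LIC groups alone.

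The count above background depends on the level. With the level raised by 1, members above it were 6 in LSK cells, 7 in WT LICs and 6 in Ezh2 KO LICs; with the 95th percentile of single control values 31, 29 and 29; with that of genes of other organs 5, 3 and 4; with the median of all genes 2, 2 and 2. Members leaving background in Ezh2 KO against WT LICs were 2 with the control percentile (Hoxc4 and Msx3), 2 with centred arrays (Hoxc4 and Sox9), 0 with the median of all genes, and 1 to 5 without 1 array. For Ezh2 KO LICs against LSK cells they were 1 with the control percentile (Msx3) and 1 with that of organ genes (Hoxc4). They were 0 with the median and 1 to 8 without 1 array. Hoxc4 was not among them with the control percentile, with the median or without LSK replicate 1. For WT LICs against LSK cells they were 2 with the raised level, 0 with either percentile or the median, and 1 to 6 without 1 array. At background in Ezh2 KO LICs and above it in LSK cells were 3 with the control percentile, 2 with the organ genes, 0 with the median, 2 with quantile normalization and 1 to 3 without 1 array; above it in WT LICs 1 with the raised level, 0 with the organ genes or the median, and 3 to 5 without 1 array. At background in WT LICs and above it in LSK cells were 0 with the median, centring or quantile normalization and 1 to 2 without 1 array.

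The sign of Sox4 between Ezh2 KO LICs and LSK cells (0.00) turned under quantile normalization (-0.0615), cyclic loess (-0.0624), array weights (-0.0252) and the mean of all probe sets (-1.06). It also turned with all probe sets fitted, where the probe set with the smallest p stood for the gene (-2.12). The difference ran from -0.0817 to 0.086 without 1 array. Six5 between the LIC groups (-0.19) was 0.19 with array weights and ran from -0.995 to 0.61 without 1 array. Without 1 array, Sox18 and Hoxa10 against LSK cells ran from -0.44 to 1.05 and from -0.55 to 0.73, and Tbx6 from -0.70 to 1.30 against LSK cells and from -0.23 to 1.77 against WT LICs. Centring moved the median of all genes in WT LICs against LSK cells from 0.02 to 0.13, and the percentage of calls in the higher direction from 37.0% to 54.1% there and from 46.5% to 59.7% for Ezh2 KO LICs against LSK cells. Most members lie at background, where arrays cannot show a difference, and the number of arrays limits the precision of the rest.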
